A study of Mus musculus with 14 samples.

Results

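Molecular chaperones of the heat shock and J-protein families were followed through cultured, freshly isolated and immunoprecipitated material from neural stem cells of the adult mouse brain. The members were the genes whose symbols belong to the Hspa, Hsp90, Hspb, Dnaja, Dnajb and Dnajc series, together with Hspd1, Hspe1 and Hsph1, without pseudogenes or predicted genes. The rule found 71 genes among the 33800 gene identifiers that occur in any of the deposited tables. Of these, 42 work mainly in the cytosol or nucleus, 14 in or at the endoplasmic reticulum (ER), 9 in mitochondria, and 6 were not assigned a compartment. All 71 were listed in the culture tables, 69 in the immunoprecipitation table and 59 in at least 1 of the fresh-cell tables.

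Hsp70 proteins bind unfolded stretches of protein in cycles of ATP hydrolysis, J-domain proteins (the Dnaj genes) bring them their clients, and Hsp110 proteins act as nucleotide exchange factors. Hsp90 folds signalling proteins such as kinases, small heat shock proteins (Hspb) hold clients without ATP, and Hspd1 with Hspe1 forms the folding chamber of the mitochondrial matrix. In the ER, Hspa5 (BiP) and Hsp90b1 (GRP94) serve secreted and membrane proteins, and their genes are classic targets of the unfolded protein response, whereas many cytosolic genes are classic targets of the heat shock factor HSF1.

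The series holds 14 samples of cells isolated from the subventricular zone of adult mice, and it addressed differences between active and quiescent neural stem cells, between Aplp1 knockout and wildtype cells, and the mRNAs bound by CPEB4, an RNA-binding regulator of poly(A) tails. A pair of single-cell libraries came from wildtype cells kept either in BMP4 for 3 days or in EGF, the factor that drives their proliferation. Another pair came from freshly isolated cells of wildtype mice and of mice labelled APLP1-/-, and in each a tag library marked 3 mice with antibodies to CD45 and MHC class I. RNA immunoprecipitations (RIP) from neurospheres, floating cultures of these cells, make up the other 8 samples. They comprise input, an IgG precipitate and a CPEB4 precipitate of wildtype cells, and a CPEB4 precipitate of cells labelled CPEB4-/-, with 2 libraries each. The labels do not say whether the paired RIP libraries came from separate cultures, so their p-values measure the spread between these libraries, which may be technical. In bulk RNA, fewer cells of a type and less RNA per cell cannot be told apart.

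The deposited counts bear on 2 of the labels. Aplp1 had 217 CPM (counts scaled to a common library total) in the fresh wildtype library and 44.0 CPM in the library labelled knockout. Of its 54 counts in the latter, 7 lay in the mouse with tag 2 and none in the mice with tags 1 and 3. The others lay in cells given to no mouse, as tags placed only 406 of the 1879 cells. Cpeb4 had 235.5 and 77.0 CPM in the wildtype CPEB4 precipitates and 286 and 110 CPM in those labelled knockout, so it was not lower in the libraries labelled knockout. The retained part of either gene was not analysed here. The BMP4 culture had 887 cells and 17313999 counts, the EGF culture 1410 cells and 33603623 counts, and the fresh libraries 2209 and 1879 cells with medians of only 364 and 424 counts per cell. The culture libraries shared 1 cell barcode and the fresh libraries 13, and RIP totals ran from 10054346 to 17466296 counts. Of the marker genes, 18 of 18 quiescent stem cell and astrocyte markers and 16 of 16 markers of active stem cells were found in both cultures, while 9 and 8 of the 12 microglial markers were at 0. The same quiescent markers summed to 8982 CPM with BMP4 and 1490.3 CPM with EGF. Oligodendrocyte lineage markers summed to 1692 and 1334 CPM, with 1 and 2 of 11 at 0, and mature neuron markers to 456 and 186 CPM. At this depth, finding a marker does not tell the cell types apart.

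The ER and heat shock branches are known to act through different short elements next to the start sites, and those elements are shown first. Promoters from 250 bases before to 50 bases after the start were taken from RefSeq (GRCm38.p6), which matched 57 of the 71 members, and both strands were searched. The ER stress element, CCAAT and CCACG with 9 bases between them, was found in 3 of the 57 members (5.26%) and in 37 of 27025 genes (0.137%). Its outer parts are in capitals in the lines that follow, each read on the strand of its gene, and a CCAAT box is always part of it.
Hspa5, chr2:34772021-34772047, plus strand, starting 65 bases before the start site: ttcaCCAATcggaggcctCCACGacgg
Dnajc3, chr14:118937823-118937849, plus strand, 105 bases before: acaaCCAATcagcgccaaCCACGaccc
Hsp90b1, chr10:86705634-86705660, minus strand, 212 bases before: aagcCCAATcgcaaggagCCACGcttc
Hsp90b1, chr10:86705529-86705555, minus strand, 107 bases before, in the opposite orientation: agtgCGTGGtgaggcacgATTGGtgag
The related element, ATTGG and CCACG with 1 base between them, was found in Dnajb11 alone among the 57 members and in 12 of the 27025 genes (0.0444%), and it also holds a CCAAT box.
Dnajb11, chr16:22857848-22857866, plus strand, beginning 7 bases after the start site: ggcgATTGGcCCACGcctg
All 4 genes with either element encode ER proteins, and the first element was originally described in promoters of ER chaperones.

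A heat shock element of 3 units, GAA and TTC in turn with 2 bases between neighbours, was found in 4 of the 57 members (7.02%) and in 179 of the 27025 genes (0.662%). These were Hspd1, Hspe1, Hsph1 and Dnajb6, and the units are in capitals.
Hspe1, chr1:55088055-55088075, plus strand, 89 bases before the start site: tccgTTCtaGAAccTTCcgga
Hspd1, the same bases on the minus strand, 139 bases before: tccgGAAggTTCtaGAAcgga
Hsph1, chr5:149636284-149636304, minus strand, beginning 15 bases after the start site: cagaTTCtgGAAagTTCtcct
Dnajb6, chr5:29735848-29735868, plus strand, 46 bases before: ccgaGAAtcTTCcgGAAcgct
Hspd1 (chr1:55077833-55088243) and Hspe1 (chr1:55088148-55091317) lie head to head and share these letters, so they are not independent cases, and Hspe1 holds another match that overlaps the one shown. The 2-unit form, GAANNTTC or TTCNNGAA, which every 3-unit element contains, was found in 16 members (28.1%) and in 16.97% of genes, and the CCAAT box alone in 24 members (42.1%) and in 41.1% of genes. A match shows that the letters are there, not that a factor bound them.

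Between the cultures, most ER members and small heat shock proteins had higher levels with BMP4, while the mitochondrial chaperonin, the cytosolic Hsp90 genes, Dnajc2, Dnajc9 and Dnajc21 had higher levels with EGF. The largest difference belonged to Hspb8, a small heat shock protein that works with Bag3 in the disposal of misfolded proteins, at 167 CPM in the BMP4 culture and 1.22 CPM in the EGF culture. Each culture is 1 library, so no test was made, and a member was counted as higher when its ratio of CPM was 2-fold or more with 10 or more counts over both libraries. Of the 62 members with that many counts, 15 were higher with BMP4, where 23.1% of all 14502 genes were, and 4 were higher with EGF, where 15.9% of genes were. Of these, 9 of the 15 and 3 of the 4 had a 95% counting interval wholly beyond 2-fold. The share of members towards BMP4 lay near that of all genes, while the share towards EGF was smaller than that of all genes. That shortfall was not tested. At a limit of 1.5-fold, 20 members were higher with BMP4 (34.3% of genes) and 9 with EGF (24.8% of genes). The median member differed by 0.13 on the log2 scale towards BMP4 and the median gene by 0.15. Intervals cover counting error only.

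Of the 14 ER members, 12 were on the BMP4 side, where 8102 of the 14502 genes were. Past 2-fold were 5 towards BMP4 and none towards EGF, with a median log2 difference of 0.54, and together they made up 1207.6 CPM with BMP4 and 735 CPM with EGF. Hspa5, the ER Hsp70, had 4763 counts (275 CPM) with BMP4 against 4223 counts (126 CPM) with EGF, and the ratio of 2.19 had a 95% interval of 2.10 to 2.28. Dnajb9, a J-protein of the ER lumen that partners Hspa5, had 71.4 and 16.1 CPM, a ratio of 4.43 (4.01 to 4.92). Dnajc3, which partners Hspa5 and is also known as an inhibitor of the kinase PERK, had 115 and 44.9 CPM, a ratio of 2.56 (2.40 to 2.74).

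Of the J-proteins of the ER membrane, Dnajc18 and Dnajb14 were past 2-fold, and Dnajb12, Dnajc16, Dnajc14, Dnajc1 and Dnajc25 were not, at ratios of 1.43, 1.23, 1.10, 1.08 and 0.922. Dnajc18 was 2.25-fold higher with BMP4 (2.05 to 2.48), at 54.8 against 24.3 CPM, and Dnajb14 2.15-fold (1.99 to 2.33), at 77.8 against 36.1 CPM. Hsp90b1 had more counts, 5382 and 7754, and a smaller difference, 311 against 231 CPM or a ratio of 1.35 (1.30 to 1.40), while Dnajb11 had 89.5 and 60.4 CPM and a ratio of 1.48. Of the 4 genes with an ER stress element of either kind, Hspa5 and Dnajc3 were therefore past 2-fold, and Hsp90b1 and Dnajb11 were on the same side below it. The 2 members of smallest margin, Hspa5 and Dnajb14, fell under 2-fold when TMM factors replaced library totals, at 0.99 and 0.97 on the log2 scale.

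The cytosolic members split by family. Among the 6 genes of the Hspb name series with enough counts, 4 were higher with BMP4 and none with EGF, and their median log2 difference was 2.24. That series also holds Hspb9 and Hspb11, which were not assigned a compartment. Hspb8 (chr5:116408491-116422864) had 2886 counts with BMP4 and 41 with EGF, a 137-fold difference with an interval of 100.4 to 191. After every cell was thinned to 4500 counts, which left out no cell, Hspb8 was found in 50.4% of BMP4 cells and 0.497% of EGF cells (86.7% and 2.70% before thinning), so it was spread over many cells of the BMP4 culture. Hspb1, the general stress protein Hsp25, had 67 and 18 counts and a ratio of 7.22, and Hspb3 had 56 and 4 counts and a ratio of 27.2. These counts are small beside those of Hspb8. The other gene higher with BMP4, Hspb2, had an interval not wholly beyond 2-fold. It overlaps Cryab, so reads could be split between the pair.

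J-proteins of the cytosol went both ways. Dnajb4, a partner of cytosolic Hsp70, was 2.55-fold higher with BMP4 (2.29 to 2.84), at 44.9 against 17.6 CPM, and Dnaja4 had 215 and 99 counts, a ratio of 4.22. Of the 9 cytosolic members that were higher with BMP4, 7 had a promoter in the RefSeq table, and all 7 held a 2-unit heat shock element: Hspb1, Hspb3, Hspb8, Dnaja4, Dnajb4, Hspa1a and Hspa1b. None of the 3 that were higher with EGF and had a promoter held one, and of the 19 without a 2-fold difference 5 did. These counts were made after the values were seen. Outside the cytosol Hspd1, Hspe1 and Dnajc10 held one, all without a 2-fold difference. No member with a 3-unit element was past 2-fold either. Over all genes 16.97% held the 2-unit form, and its share among all genes higher with BMP4 was not counted. Hspa1a and Hspa1b, the stress-inducible Hsp70 genes, had only 9 and 8 counts with BMP4 and 6 and 3 with EGF, and as near-identical copies their reads could be split between them.

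Towards EGF, Dnajc2, a J-protein that sits on the ribosome, was 3.45-fold higher (3.18 to 3.75), at 133 CPM against 38.5 CPM with BMP4. Dnajc9, a co-chaperone of histones H3 and H4, had 41.5 and 113 CPM, a 2.72-fold difference (2.51 to 2.95). Dnajc21, known from maturation of the large ribosomal subunit, had 7.16 and 23.5 CPM, a 3.28-fold difference (2.71 to 4.00).

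The constitutive cytosolic chaperones moved less. Hspa8, the housekeeping Hsp70, had 1027.6 CPM with BMP4 against 1058.9 with EGF, and a ratio of 0.971 (0.953 to 0.988). Hsp90ab1 had 1015.8 and 1426.8 CPM, 1.41-fold more with EGF, and its inducible paralog Hsp90aa1 had 203 and 359 CPM, 1.77-fold more with EGF (1.70 to 1.84). Neither Hsp90 gene reached 2-fold.

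Mitochondrial members lay mostly on the EGF side, with 2 of 9 on the BMP4 side, a median log2 difference of -0.17, and sums of 1183.7 CPM with BMP4 and 1707.7 CPM with EGF. Most of that gap came from the chaperonin pair: Hspe1 had 572 and 957 CPM, 1.67-fold more with EGF, and Hspd1 had 145 and 252 CPM, 1.74-fold more with EGF. The matrix Hsp70, Hspa9, differed less, at 138 and 156 CPM, as did Dnajc19, part of the import motor of the inner membrane, at 173 and 189 CPM. Dnajc28 alone of the 9 passed 2-fold towards BMP4, on few counts. Of the 71 members, 9 had under 10 counts over both cultures, and Dnajc5b, Dnajc5g and Dnajb8 had none in either.

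**Figure D1:**
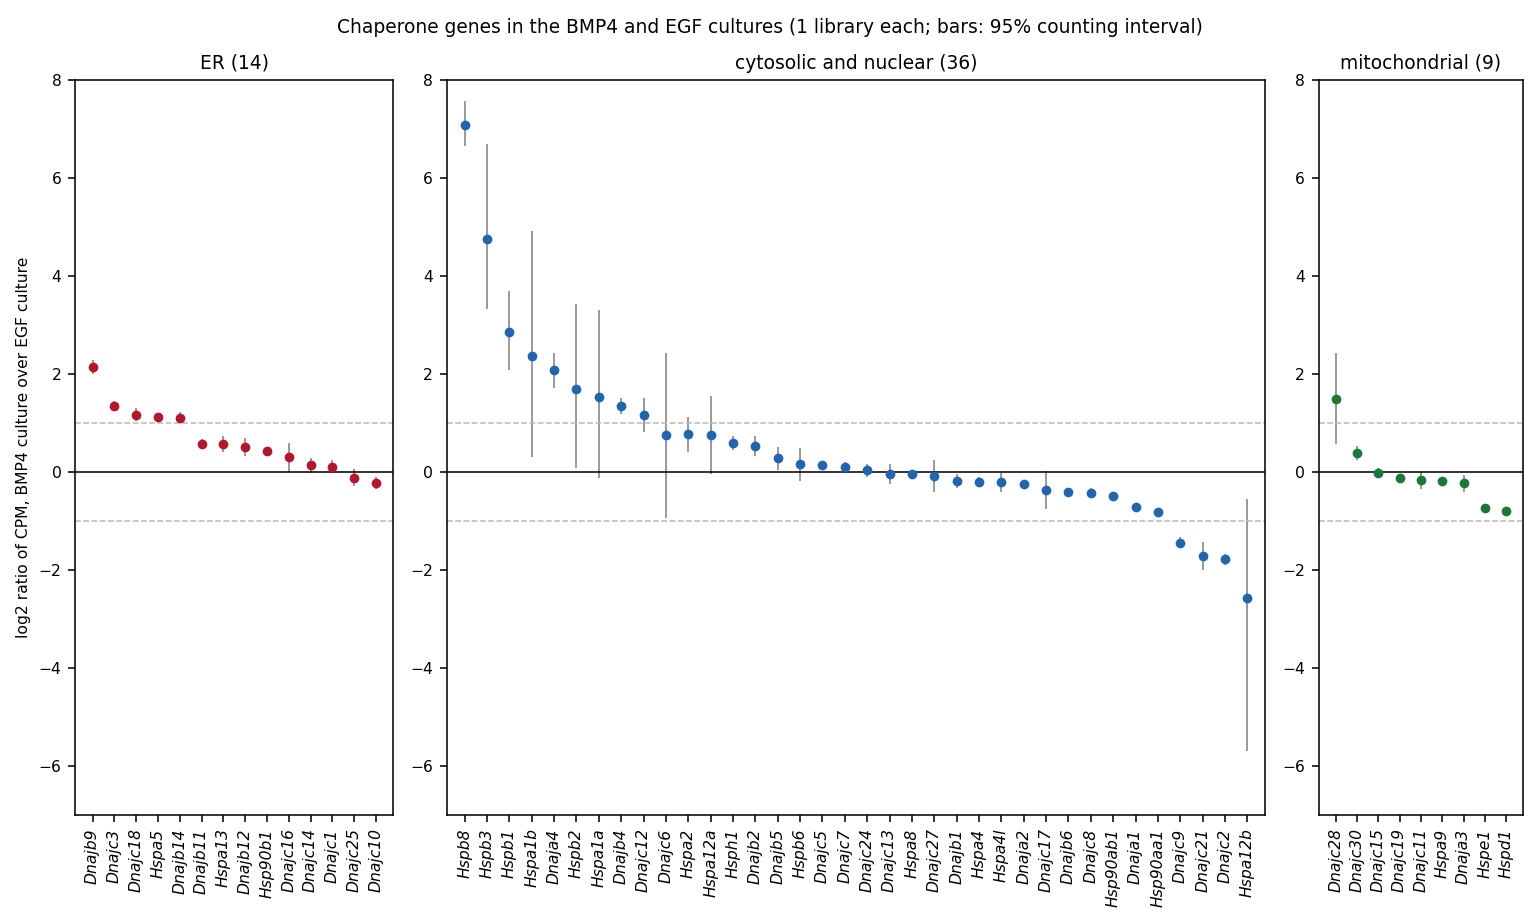
Log2 ratio of CPM in the BMP4 culture over the EGF culture (y axis) for each member with 10 or more counts, in 3 panels by compartment (14 ER, 36 cytosolic and nuclear, 9 mitochondrial). Points are single-library ratios, bars the 95% counting interval and dashed lines 2-fold; 12 of the 14 ER members lie above 0, Hspb8 stands highest, and Hspd1 and Hspe1 are the lowest mitochondrial members.

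Other folding genes from fixed lists can be set beside the members. Among 38 genes of ER folding and the unfolded protein response with enough counts, 30 were on the BMP4 side, 7 past 2-fold against 3 towards EGF, with a median log2 difference of 0.58. Over all genes 23.1% were past 2-fold towards BMP4 and 15.9% towards EGF, with a median of 0.15, and the counts of the other lists stand beside the same shares. The ER lectin Calr was 2.18-fold higher with BMP4, while the oxidase Ero1l was at a ratio of 0.223. Cytosolic co-chaperones and heat shock factors had 4 genes past 2-fold towards BMP4 and 5 towards EGF among 30. They included Bag3, the partner of Hspb8, with 850 and 223 counts and a ratio of 7.40, and towards EGF Fkbp5, Fkbp4 and Stip1, co-chaperones of Hsp90, at ratios of 0.252, 0.445 and 0.483.

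The cytosolic chaperonin TRiC with prefoldin had 1 gene towards BMP4 and 3 towards EGF among 13, and the mitochondrial import list had none and 2 among 17. Immediate early genes, which respond to handling, had 11 of 17 past 2-fold towards BMP4 and 1 towards EGF, with a median log2 difference of 1.39. Their part in the differences of the chaperones was not tested.

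The cultures differed in division: all 29 genes of the cell cycle list were 2-fold or more higher with EGF, and 28.4% of BMP4 cells but 1.06% of EGF cells had no count of any of them. Within cells of the same number of cycle counts Hspb8 and Dnajb9 were on the BMP4 side. Hspa13 and Dnajc1 were on that side over all cells, at ratios of 1.48 and 1.08, but on the EGF side in cells without cycle counts, at 0.506 and 0.669 with 10 and 16 counts in the EGF cells. Hspb8 stood at 169, 166 and 167 CPM in BMP4 cells with 0, 1 or 2, and 3 or more cycle counts, against 4.27, 3.32 and 1.14 CPM in the EGF cells. Dnajb9 stood at 75.8, 70.4 and 69.9 CPM against 25.6, 17.7 and 16.0 CPM.

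In cells without cycle counts Hspa5 stood at 241 CPM with BMP4 against 162 CPM with EGF, the latter from only 15 cells. In cells with 3 or more it stood at 297 against 126 CPM. After thinning to equal depth, with 115 EGF cells lacking cycle counts, Hspa5 was no nearer between the cultures than over the whole libraries. Hspd1 was higher in cells with more cycle counts, at 130, 137 and 163 CPM with BMP4 and 162, 199 and 254 CPM with EGF. Hspe1 showed the same order with EGF, at 670.5, 780.1 and 963.9 CPM. In cells without cycle counts after thinning to equal depth, EGF cells had 1.51-fold more Hspd1 (1.37 to 1.67) and 1.41-fold more Hspe1 (1.34 to 1.48), less than over the whole libraries.

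Only 15 EGF cells lacked cycle counts, with 10 of 55 testable members 2-fold or more higher with BMP4 (30.6% of genes) and 3 higher with EGF (11.1% of genes). After all cells were thinned to equal depth, 585 BMP4 and 115 EGF cells had no cycle count. Then 9 of 57 members were higher with BMP4 (23.1% of genes) and 2 with EGF (10.4%). In these cells Dnajc3 had a ratio of 4.03 (3.16 to 5.21), Dnajb9 of 2.98 (2.28 to 3.96), Hspa5 of 2.40 (2.12 to 2.73) and Hspb8 of 98.1 (38.3 to 360.5). Dnajb4 fell below 2-fold, to 1.83 (1.40 to 2.42). Towards EGF, Dnajc2 was 2.33-fold higher (1.97 to 2.76) and Dnajc21 2.08-fold (1.38 to 3.08), whereas Dnajc9 was 1.27-fold higher (1.01 to 1.58), under the 2.72-fold of the whole libraries.

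**Figure D2:**
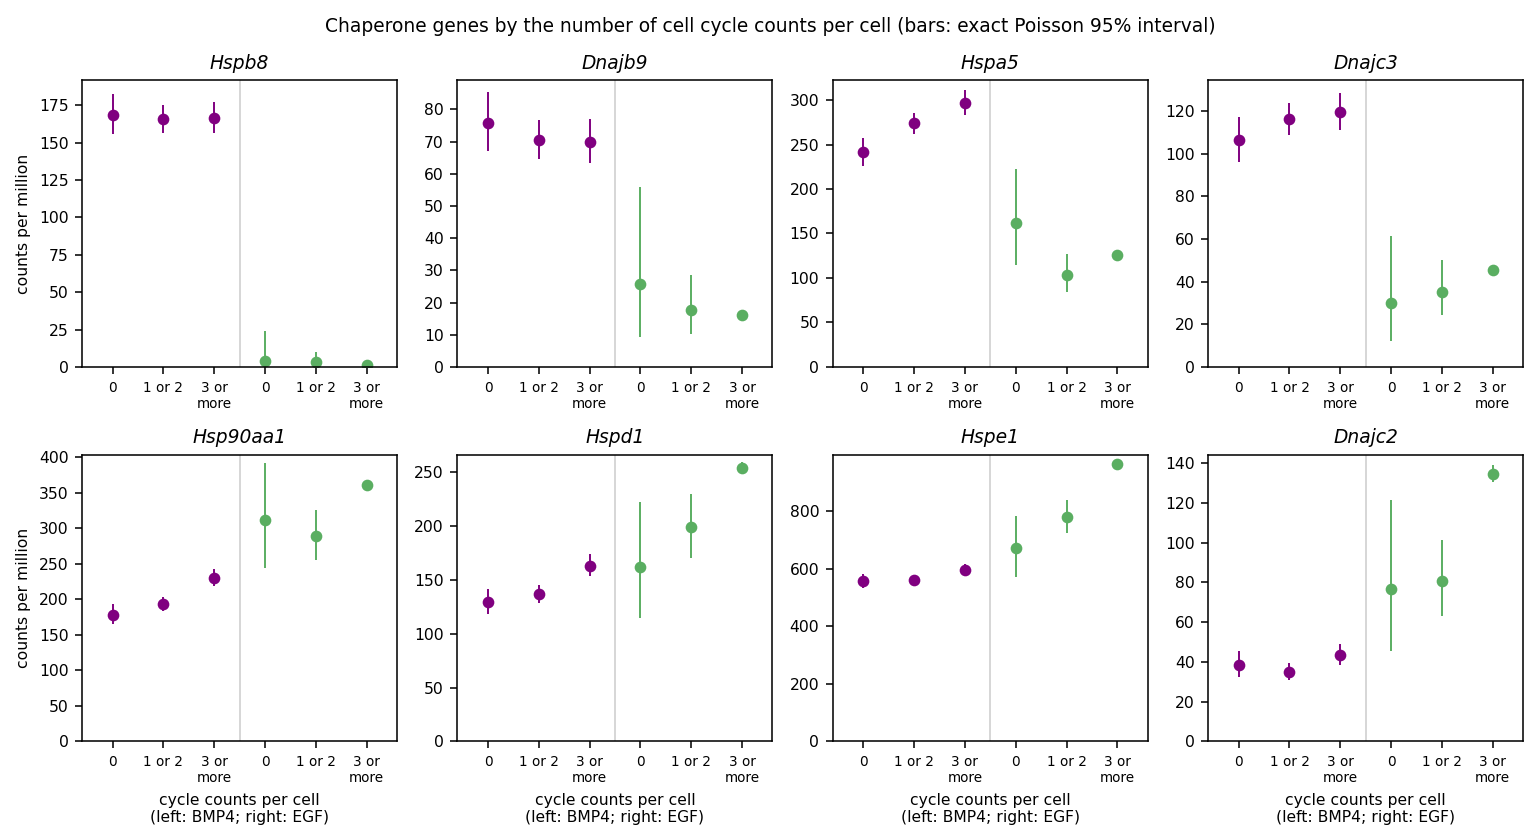
CPM (y axis, from 0) of 8 members in cells grouped by their number of cell cycle counts (x axis: 0, 1 or 2, 3 or more), with BMP4 cells on the left of each panel in purple and EGF cells on the right in green. Bars are exact Poisson 95% intervals; Hspb8 stays near 167 CPM in all 3 BMP4 groups and under 5 CPM in the EGF groups, while Hspd1, Hspe1 and Dnajc2 are highest in EGF cells with 3 or more cycle counts.

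In freshly isolated cells several members differed between cell classes beyond their counting intervals. Between the genotypes only 8 members could be tested, and none passed. Clusters were built without the members and named from marker genes. Quiescent stem cell or astrocyte-like cells numbered 1349 in the wildtype library and 907 in the library labelled knockout, active stem cell or transit amplifying-like cells 318 and 412, and neuroblast-like cells 280 and 272. One of the 3 quiescent-like clusters was led by the immediate early genes Nr4a1, Klf4 and Fos, and 4 clusters of 354, 65, 11 and 7 cells stayed unnamed. Each class came from the same 2 libraries, so levels are given with counting intervals and no test. Levels are CPM of the class, and the classes differed in depth, with medians of 314 and 352, 860 and 912, and 428 and 477 counts per cell in the same order.

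Among these 3 classes Hspa2 and Dnajb9 were highest in the quiescent-like cells. Hspa2, an Hsp70 best known from sperm formation, stood at 634 CPM (567 to 706) in wildtype and 590.5 CPM (517 to 671) in knockout-labelled quiescent-like cells. It stood at 109 and 39.0 CPM in active-like cells and at 70.4 and 10.7 CPM in neuroblast-like cells. Dnajb9 stood at 136 and 143 CPM in quiescent-like cells, 33.3 and 34.9 CPM in active-like cells, and 44.8 and 32.2 CPM in neuroblast-like cells. For both genes the intervals of the quiescent-like class lay wholly above those of the other 2 within each library.

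Hsp90ab1, Hsp90aa1 and Hsph1 were highest in the active-like cells among the 3. Hsp90ab1 stood at 159 CPM (127 to 198) and 239 CPM (193 to 292) in quiescent-like cells and at 859 CPM (761.6 to 964.4) and 967 CPM (882 to 1058.8) in active-like cells. Its neuroblast-like levels of 666 and 714 CPM lay between. Hsp90aa1 stood at 19.2 and 45.2 CPM in quiescent-like, 127 and 131 CPM in active-like, and 96.0 and 53.7 CPM in neuroblast-like cells. Hsph1, an Hsp110 exchange factor for Hsp70, stood at 169 and 152 CPM in active-like cells, and in the other 2 of these classes all its values lay between 25.0 and 37.6 CPM.

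The main ER chaperones did not set quiescent-like cells apart. Hspa5 stood at 108 and 103 CPM in quiescent-like, 172 and 187 CPM in active-like, and 38.4 and 21.5 CPM in neuroblast-like cells. Hsp90b1 stood at 163 and 113 CPM, 124 and 160 CPM, and 76.8 and 59.0 CPM, with overlapping intervals between the first 2 classes. Hspb8, so different between the cultures, had only 3 and 2 counts in the whole fresh libraries, too few to rank the classes.

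Among members of many counts, Dnajc18 stood at 342 and 420 CPM in quiescent-like, 157 and 240 CPM in active-like, and 320 and 306 CPM in neuroblast-like cells. Dnajb14 ran from 141 to 279 CPM over the 6 values and was highest in quiescent-like cells of both libraries. Dnajb6, a J-protein that holds back aggregation of polyglutamine proteins, stood between 176 and 243 CPM, with overlapping intervals in all 3 classes. Hspa4l, another Hsp110 protein, differed between the libraries in quiescent-like cells, at 326.5 CPM (279 to 379.5) and 176 CPM (137 to 222), and was at 172 and 177 CPM in active-like cells and under 50 CPM in neuroblast-like cells.

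Summed over compartments, the ER members took 1313.8 and 1329.1 CPM in quiescent-like, 855.5 and 1029.0 CPM in active-like, and 787 and 751 CPM in neuroblast-like cells. Among these 3 classes cytosolic members were highest in active-like cells, at 2633.1 and 2573.5 CPM against 2037.9 and 1929.6 CPM in quiescent-like cells. Mitochondrial members were too, at 478 and 489 CPM against 294 and 332 CPM. Outside them the wildtype microglia-like cells stood at 2851.4 CPM of cytosolic and 972 CPM of mitochondrial members, from 44 and 15 counts. Those of the library labelled knockout stood at 1917.9 and 83.4 CPM, from 46 and 2 counts. The ER members of microglia-like cells took 1555.3 CPM in wildtype and 1375.9 CPM in the other library, from 24 and 33 counts. Immediate early genes summed to 3163 and 7754 CPM in quiescent-like and 4716 and 3939 CPM in active-like cells, and their part in these levels was not tested.

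**Figure D3:**
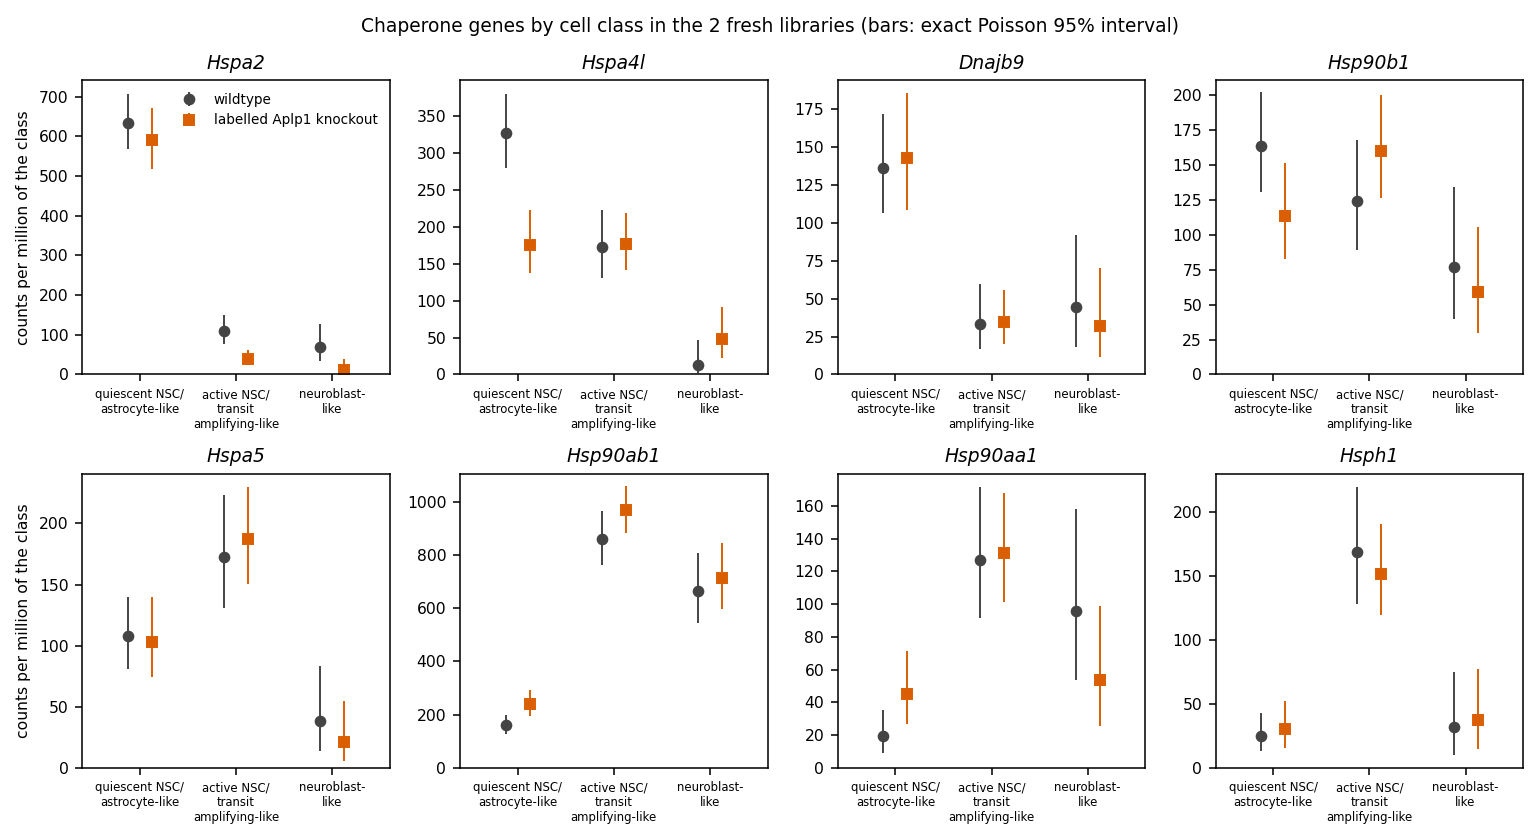
CPM of the class (y axis, from 0) for 8 members in 3 classes of fresh cells (x axis), with circles for the wildtype library and squares for the library labelled knockout. Bars are exact Poisson 95% intervals; Hspa2 and Dnajb9 are highest in quiescent-like cells, and Hsp90ab1, Hsp90aa1 and Hsph1 are highest in active-like cells in both libraries.

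Between the genotypes only 8 chaperones had enough counts for the test over mice, and none of them passed it. With the whole libraries as single samples, 1 of 51 members with 10 or more counts was 2-fold or more higher in the library labelled knockout (9.50% of genes) and 5 were 2-fold or more lower (9.38% of genes), and all 6 had 20 or fewer counts in total. They were Dnajb5 on the higher side and Dnajc27, Dnajc12, Dnajc16, Hspa1a and Hspa1b on the lower side. The median member differed by -0.004 on the log2 scale and the median gene by 0.004. Hspa2 had 396 counts in the wildtype library and 277 in the other (349 and 226 CPM), Hspa4l 257 and 175 (227 and 142.5 CPM), and Hsp90ab1 519 and 744 (458 and 606 CPM). Dnajc18 had 313 and 416 counts (276 and 339 CPM), Dnajb14 228 and 267 (201 and 217.5 CPM), and Dnajb6 210 and 227 (185 CPM in both).

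Class shares differed between the libraries: quiescent-like cells made up 61.1% of the wildtype and 48.3% of the knockout-labelled cells, and active-like cells 14.4% and 21.9%. The lower Hspa2 and the higher Hsp90ab1 of the library labelled knockout lie on the side of these shares. Within the quiescent-like, active-like and neuroblast-like classes the levels of both genes also differed in these directions, in part with overlapping intervals. The part of the class shares in the library differences was not tested.

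Tags gave 82, 142 and 239 cells to 3 wildtype mice and 116, 157 and 133 to 3 mice labelled knockout, and counts were summed per mouse. Hspa2 had 277, 563 and 634 CPM in the wildtype mice and 576, 456.5 and 289.9 CPM in the others, so the groups overlapped. Hsp90ab1 had 277, 456 and 228 CPM against 171, 550.4 and 493 CPM, and these overlapped too. Dnajc18 had 227, 198 and 248 CPM against 125, 537 and 130.4 CPM, where 1 knockout-labelled mouse lay above all others and 2 below.

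With edgeR's quasi-likelihood test over 1109 genes, of which 0 passed an adjusted p of 0.05 (0% of genes), 8 members could be tested and none passed, nor did any reach an unadjusted p of 0.05. Dnaja3, a mitochondrial J-protein, had the smallest p, with a log2 difference of 0.84 (SE 0.59) and an adjusted p of 0.996. Its levels were 126, 60.8 and 159 CPM in the wildtype mice and 234, 161 and 217 CPM in the others. These do not overlap, but they rest on 5, 4 and 16 counts against 15, 12 and 15. The nearest mice stood at 159 and 161 CPM, from 16 and 12 counts. How many of all genes lie apart in this way was not counted. Hspa2 differed by -0.16 (SE 0.40) and Hsp90ab1 by 0.37 (SE 0.47). DESeq2 called 0 of the 8 and 1 gene in all. Genotype and library cannot be told apart in this design.

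Some fresh counts may be shared with neighbours. Of 43 members found in 20 or more cells, 3 had a gene whose counts correlated above 0.5 with theirs across cells. Dnajc14 correlated at 0.986 with the overlapping Ormdl2, Hspa12b at 0.858 with its neighbour 1700037H04Rik, and Dnajc4 at 0.584 with Eif4ebp1. These cells share a library and its depth, and the levels of these 3 members are uncertain.

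In the RIP libraries, short chaperone genes were depleted and a few long ones enriched in the precipitates compared with input, and no member passed the test between the CPEB4 and IgG precipitates. Members made up 0.617% and 0.728% of the input counts and between 0.0652% and 0.138% of those of the 6 precipitates. Values below are CPM scaled by edgeR's TMM factors, which ranged from 0.428 to 2.86, and 58 of the 69 members had enough counts to be tested among 17062 genes. Between CPEB4 precipitates of wildtype and knockout-labelled cells, 0 of 58 members passed (0% of genes), and 0 had an unadjusted p under 0.05 while 137 genes did. DESeq2 also called 0 members. The libraries labelled knockout differed from each other by a median of 0.68 on the log2 scale over the members, against 0.26 for input, 0.39 for IgG and 0.34 for the wildtype CPEB4 precipitate.

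Between the wildtype CPEB4 and IgG precipitates, 0 of 58 members and 0 of 17062 genes passed (0%), with 1 member and 1360 genes at an unadjusted p under 0.05, and DESeq2 called 0 members too. That member was Hspa2, which was lower by 1.72 log2 units (SE 0.73) with an adjusted p of 0.60 in edgeR's test. The members' median was -0.12 and that of all genes 0.00. In data simulated at these depths, 38.5% of 4-fold changes were recovered in this comparison, with 6 false calls. The 200 changed genes were all above the median level, and the composition differences that TMM factors scale were not simulated. The recovery for members of low level is therefore not known.

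Against input, the wildtype CPEB4 precipitate had 5 members higher (27.4% of genes were) and 19 lower (27.6% of genes were) at an adjusted p under 0.05. The median member lay at -0.61 and the median gene at -0.09 on the log2 scale. By compartment, 2 of 13 ER members were higher and 4 lower, 3 of 34 cytosolic members were higher and 11 lower, and 0 of 9 mitochondrial members were higher and 3 lower. The IgG precipitate, compared with the same input libraries, had 3 members higher (18.2% of genes) and 7 lower (15.6% of genes), with medians of -0.48 for members and -0.13 for genes. As both comparisons share the input, their values are set side by side.

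The 5 enriched members lie in genes that span from 36842 to 188466 bases. Dnajc13, the endosomal J-protein RME-8, had 22.7 and 21.9 scaled CPM in input, 60.9 and 61.8 with IgG, 72.0 and 72.3 with CPEB4, and 73.1 and 56.8 in the libraries labelled knockout. All 6 precipitates lay above both inputs, and the wildtype CPEB4 precipitate rose by 1.69 log2 units (SE 0.35, edgeR adjusted p 0.0033) and IgG by 1.46 (SE 0.35, adjusted p 0.014). Dnajc13 spans 112012 bases (chr9:104151597-104263608).

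Dnajc1, a J-protein of the ER membrane, had 24.4 and 18.0 in input, 53.9 and 73.1 with IgG, 165 and 85.4 with CPEB4, and 166 and 66.0 in the libraries labelled knockout, all in scaled CPM. Its rise was 2.56 log2 units (SE 0.55, adjusted p 0.0038) with CPEB4 and 1.58 (SE 0.53, adjusted p 0.043) with IgG, both in edgeR's test. Its 188466 bases (chr2:18205634-18394099) overlap Mllt10, and reads of the pair could not be separated if counting ignored strand, a setting the sources used here do not give.

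Dnajc6, the neuronal auxilin that uncoats clathrin vesicles, had 0.16 and 0.21 scaled CPM in input, 0.46 and 0.64 with IgG, 0.87 and 2.29 with CPEB4, and 2.06 and 0.97 in the libraries labelled knockout. It rose by 3.06 log2 units (SE 0.69, adjusted p 0.0048 in edgeR), from 8 and 9 counts in input to 12 and 29, and its gene spans 146152 bases. Without the second CPEB4 library the rise was 2.17 with an adjusted p of 0.075. Dnajb14 (48889 bases) rose by 1.19 log2 units with an adjusted p of 0.014 in edgeR's test, and Dnajc24, which works in the modification of elongation factor 2, rose by 1.37.

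The 19 depleted members lie in shorter genes, none above the 21790 bases of Dnajb11. Dnajb11, the ER J-protein ERdj3, had 35.0 and 38.5 scaled CPM in input, 11.4 and 10.9 with IgG, 10.6 and 9.65 with CPEB4, and 9.04 and 12.1 in the libraries labelled knockout. It fell by 1.86 log2 units (SE 0.34, edgeR adjusted p 0.0021) with CPEB4 and by 1.72 (SE 0.35, adjusted p 0.0071) with IgG. All 6 precipitates lay below both inputs.

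Dnajc9 had 39.9 and 51.3 scaled CPM in input, 16.96 and 13.3 with IgG, 7.01 and 10.2 with CPEB4, and 5.98 and 12.8 in the libraries labelled knockout. It fell by 2.41 log2 units (SE 0.45, edgeR adjusted p 0.0021) with CPEB4. Dnaja2, a cytosolic partner of Hsp70, had 65.5 and 73.3 in input, 30.2 and 27.5 with IgG, 21.1 and 21.8 with CPEB4, and 18.8 and 26.7 in the libraries labelled knockout, again in scaled CPM. It fell by 1.69 (SE 0.35, adjusted p 0.0033) with CPEB4 and by 1.27 (SE 0.35, adjusted p 0.022) with IgG in edgeR's test.

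Hspa5 had 91.8 and 104 scaled CPM in input, 54.1 and 16.3 with IgG, 7.95 and 21.2 with CPEB4, and 7.84 and 27.1 in the libraries labelled knockout. It fell by 2.75 log2 units with CPEB4 (SE 0.74, edgeR adjusted p 0.011), while the IgG libraries lay far apart and IgG missed the threshold at -1.48 (adjusted p 0.13). Hsp90ab1 and Hspa8 fell by 2.37 and 1.88 log2 units with CPEB4. With IgG, Dnajc8, a spliceosome-linked J-protein, fell by 1.23 (SE 0.34, edgeR adjusted p 0.022) and Dnajc17 rose by 1.29 (SE 0.37, adjusted p 0.025).

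Hsp90aa1 stood apart from its paralog. It had 25.7 and 34.9 scaled CPM in input, 99.2 and 49.8 with IgG, 30.7 and 49.98 with CPEB4, and 26.0 and 66.6 in the libraries labelled knockout. Neither precipitate passed the test, with an adjusted p of 0.52 for CPEB4 against input in edgeR.

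**Figure D4:**
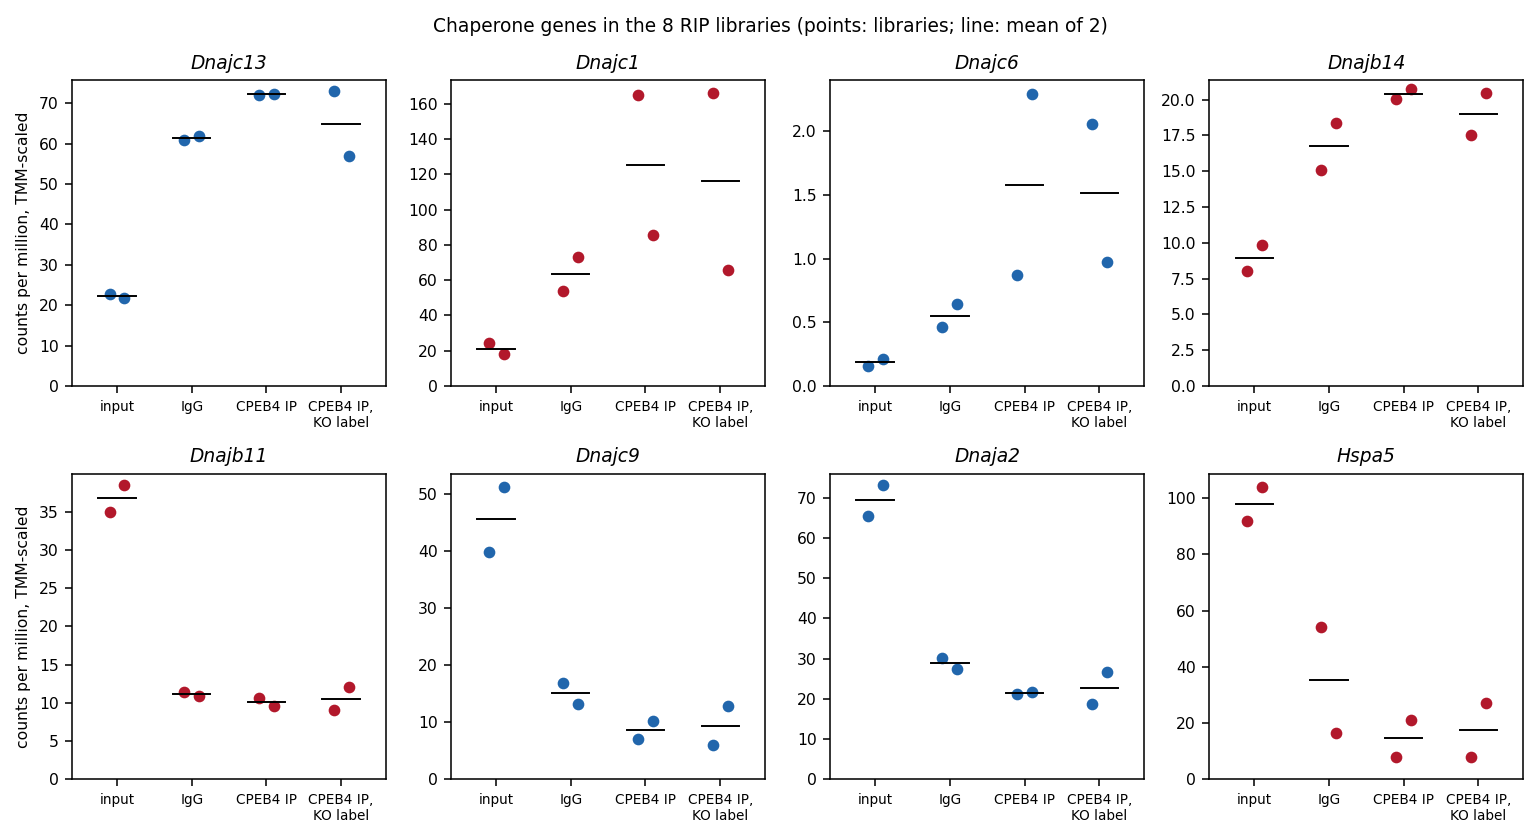
Scaled CPM (y axis, from 0) of 8 members in each of the 8 RIP libraries (x axis: input, IgG, CPEB4 precipitate, CPEB4 precipitate labelled knockout), with a point for each library and a line at the mean of 2. Dnajc13, Dnajc1, Dnajc6 and Dnajb14 are lowest in input, and Dnajb11, Dnajc9, Dnaja2 and Hspa5 are highest in input.

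The change against input followed gene span. Over the 58 members, Spearman's rho between log2 change and genomic span was 0.763 for CPEB4 and 0.611 for IgG, and over the 15524 genes with a span it was 0.635 and 0.548. Each correlation is across genes that share the same libraries, and genes are not independent replicates. The 18 members under 10 kb had a median CPEB4 change of -2.02, the 28 from 10 to 40 kb of -0.58 and the 12 of 40 kb or more of 0.42. All genes in those ranges had medians of -1.73, -0.43 and 1.48. The longest members thus had a lower median than all genes of that span, and the order by span was that of all genes.

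**Figure D5:**
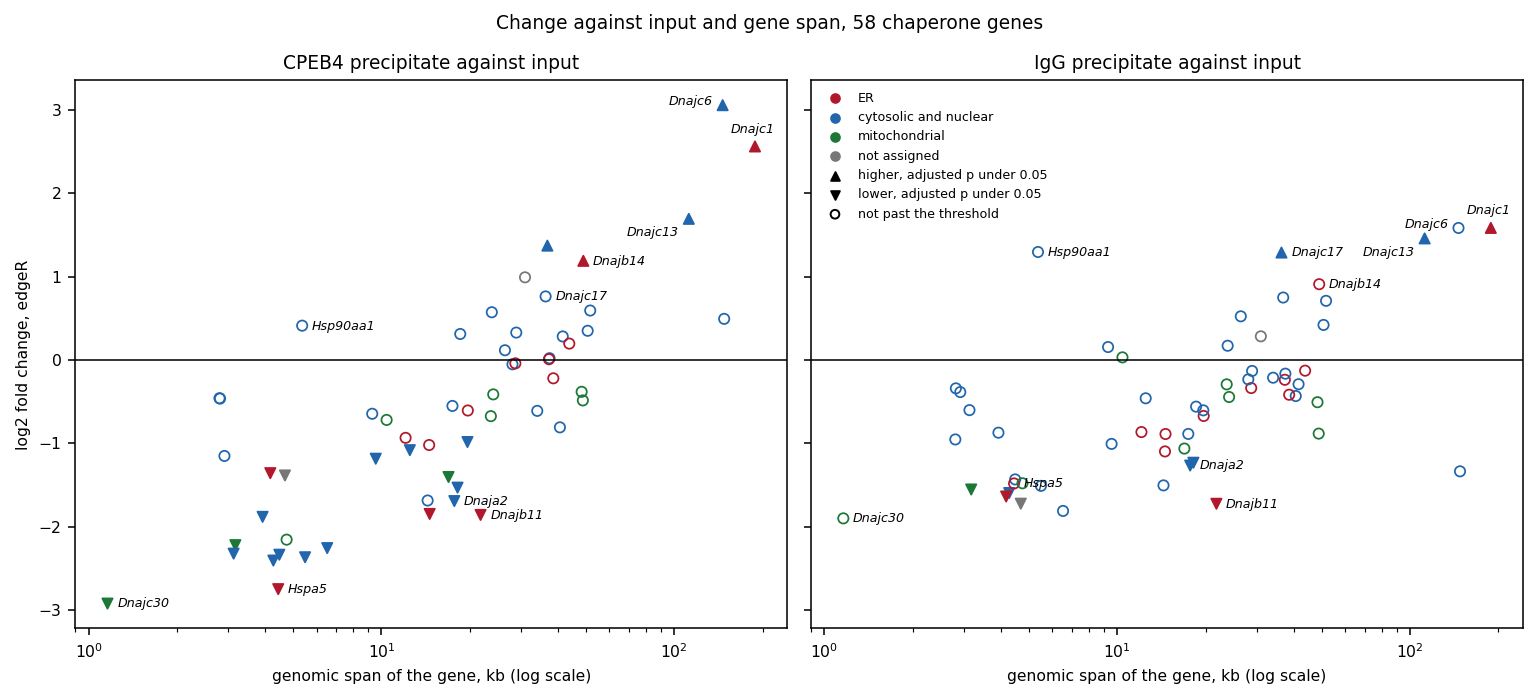
Log2 fold change against input (y axis) and genomic span in kb on a log scale (x axis) for the 58 tested members, with the CPEB4 precipitate on the left and the IgG precipitate on the right. Colours give the compartment, filled triangles mark an adjusted p under 0.05 and open circles the rest; Dnajc6, Dnajc1 and Dnajc13 lie at the top with CPEB4, and Dnajc30, the shortest, at the bottom.

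Direction against input depends on how the libraries are scaled. With library totals in place of TMM factors the median gene moved by -1.47 log2 units for CPEB4 and -2.49 for IgG, and 0 members were higher with CPEB4 (6.39% of genes) and 37 lower (46.5%), and with IgG 0 were higher (2.50%) and 52 lower (65.5%). Dnajc13, Dnajc1 and Dnajc6 then differed from input by 0.21, 1.10 and 1.58 with adjusted p of 0.78, 0.28 and 0.19 in edgeR's test, so their rise is relative to the other genes of the precipitate. For CPEB4, each fit with 1 library left out called fewer members and a smaller share of all genes, each way, than the fit of all libraries. Dnajc1 and Dnajc13 (higher) and Dnaja2, Dnajb11, Dnajc8 and Dnajc9 (lower) were called in every one. For IgG no member was called in every such fit, and a smaller share of all genes was called there too. Each such fit leaves a group with 1 library, which is assumed to vary like the other groups.

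Genes of the other folding lists can be set beside the 27.6% of all genes lower and 27.4% higher with CPEB4. TRiC and prefoldin had 13 of 14 genes lower with CPEB4 and none higher, cytosolic co-chaperones 19 lower and 1 higher of 30, ER folding genes 21 lower and 7 higher of 37, and mitochondrial import genes 7 lower and 1 higher of 16. With IgG these counts were 5 and 0, 11 and 0, 12 and 3, and 4 and 2, where 15.6% of all genes were lower and 18.2% higher. The ER genes that rose with CPEB4 included the stress sensors Atf6 and Ern1, by 1.91 and 2.87 log2 units, and those that fell included Sdf2l1 and Calr, by 4.15 and 2.96. Sums of cell type markers are CPM of library totals without TMM factors, so they are not on the scale of the log2 changes. Oligodendrocyte markers summed to 4727 and 5473 CPM in input and to between 108 and 179 CPM in the 6 precipitates. Microglial markers summed to 130.1 and 107 CPM in input and to between 352 and 1212.4 CPM in the precipitates. Of the 12 microglial markers 9 were listed for RIP, with 1 and 2 of them at 0 in input and 1 to 4 in the precipitates. The part of either marker set in the changes was not tested.

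Across the 8 RIP libraries, the genes with a log2 CPM most like that of Hspa5 were Kctd15, Alg2 and Tmem115, with Pearson's r of 0.994, 0.993 and 0.992. Those most like Hsp90aa1 were Gm14098, Gm27176 and Fam178b, with r of 0.979, 0.977 and 0.973. The libraries fall into input and precipitates, which shape these values, and no p is given.

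Position limits what counts can be assigned. All 71 members had a position in RefSeq's GRCm38.p6 annotation, 32 overlapped another gene and 15 a protein-coding one. Hspa5 (chr2:34772090-34776529) overlaps Rabepk, Hspd1 overlaps Hspe1, Dnajb4 overlaps Fubp1 and Dnajc17 overlaps Zfyve19. Reads from such pairs could be split between them.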

How the data were processed

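All values used are counts deposited by the authors: counts per gene and cell for 2 cultures and 2 fresh libraries, counts per tag and barcode, and counts per gene for 8 RIP libraries. Per the submitters' processing notes the build was mm10 and the tools included Cell Ranger, Bowtie2 and SAMtools. Tool versions, annotation, strand setting and cell filters were not given in the sources used here, nor was whether fresh counts are reads or molecules. Symbols came from a table of gene names (98.7% of culture, 99.0% of fresh and 98.2% of RIP identifiers).

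The members and lists were chosen with earlier results of these data known, and the use of library totals and of thinning before the cycle count was chosen after seeing the data, as was the marker rule for naming clusters. Named genes were, in the cultures, the members 2-fold or more apart with 500 or more counts and the 3 of most counts per compartment; in fresh cells, the 6 of most counts and any past the test; in RIP, the 3 of smallest p each way in each comparison. Members named outside that rule were chosen after their values were seen. In the cultures these were Dnaja4, Hspb1, Hspb2, Hspb3, Hspa1a, Hspa1b and Dnajc28. In fresh cells they were Dnajb9, Hsp90aa1, Hsp90b1, Hsph1, Hspa5, Hspb8, Dnaja3 and the few past 2-fold. In RIP they were Dnajb14, Dnajc24, Dnajc30, Hspa2, Hspa5, Hspa8, Hsp90aa1 and Hsp90ab1. The list genes named were chosen likewise.

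Culture counts were summed per library (minimum 10 counts, pseudocount 0.5 for log2 medians). Ratios carry exact binomial and CPM exact Poisson 95% intervals. Fresh cells were clustered with scanpy 1.11.5 (counts scaled to 10000 per cell, 2000 variable genes, 30 components, 15 neighbours, Leiden resolution 1) without the members and without 586 genes of pairs correlated above 0.5. A cluster could be named when 3 or more markers of a type, and their sum, were 1.5-fold or more higher. It took the type of largest summed fold, unless another type had more markers among its 10 top genes. The cluster of 65 cells, with 9 of 11 oligodendrocyte lineage markers higher, stayed unnamed by that rule. Neither doublets nor free RNA were removed. A cell belonged to a mouse with 10 or more tag counts, 75% of them of 1 tag. Tests used edgeR 4.0.16 in R 4.3.3 (filterByExpr, TMM, quasi-likelihood) with Benjamini-Hochberg adjustment over all genes and all 8 RIP libraries in 1 fit, and DESeq2 1.42.0 as an alternative; an SE is the log2 change over the root of F. On simulated data, 4-fold changes in 200 genes above the median level were recovered at 38.5% (CPEB4 against IgG, 17062 genes) and 95.5% (mice, 1109 genes).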

Additional observations from a re-analysis of the deposited data

How the results depend on the processing

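In the cultures, a 1.5-fold limit counted 20 members towards BMP4 and 9 towards EGF (34.3% and 24.8% of genes), and the thinned cells without cycle counts gave 9 and 2 in place of 15 and 4. In the fresh classes, the cytosolic sum of the few knockout-labelled endothelial-like cells was 2073.7 CPM at a cluster resolution of 0.5. For CPEB4 against input, library totals gave 0 members higher and 37 lower, and leaving out 1 library at a time 3 to 3 higher and 5 to 12 lower. For IgG against input, DESeq2 gave 5 higher and 9 lower, no low-count filter 1 and 15, and a fit of these 2 groups alone 6 and 13. The shares over all genes in these 3 fits are not given here, so the counts are no result about the members. Library totals gave 0 and 52 (2.50% and 65.5% of genes), and leaving out 1 library again gave fewer members and fewer of all genes. Under library totals Dnajc13, Dnajc17 and Dnajc1 reversed against input with IgG, to -1.04, -1.22 and -0.90. The cause was not tested, except that library totals shift all genes together. The replicate block gave 4 higher and 19 lower for CPEB4 against input and 3 and 6 for IgG against input, without the shares over all genes. It gave 0 in the other RIP comparisons and 0 over the mice. Same-numbered RIP libraries correlated between -0.333 and 0.336 in their deviations. With 2 libraries a group, these values cannot tell whether same-numbered libraries share a culture or batch. All alternatives for CPEB4 against IgG, for CPEB4 of wildtype against knockout-labelled cells and for the mice called 0 members. The limits are 2 RIP libraries a group, 1 library per culture and genotype, and a fresh depth at which 8 members could be tested over mice.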
